A study of Mus musculus with 17 samples.

Results

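The cytosolic ribosome of the mouse was followed at the RNA level through 81 protein-coding genes with ribosomal protein symbols. Members were chosen by symbol alone: Rpl or Rps followed by digits, an optional letter and an optional l, together with Rplp0, Rplp1, Rplp2 and Rpsa, without the Rps6k kinases and without pseudogenes. All 81 were listed in each of the 17 count tables, which have 53313 gene identifiers in common, and 50 carry a large subunit name and 31 a small subunit name. Samples were wild-type C57BL/6Rj mouse material of 5 groups. There were 4 libraries of primary tubular epithelial cells (PTEC) on culture day 6 without irradiation, 4 libraries of PTEC on day 16 after γ-irradiation of confluent cells with 10 Gy, and 3 whole-kidney libraries each at 3, 12 and 24 months of age, from untreated male mice. PTEC were outgrowths of tubular fragments from collagenase-digested kidneys. There were no unirradiated cultures of day 16, so dose and days in culture cannot be told apart between the PTEC groups. The labels do not say whether same-group PTEC libraries came from separate mice. The p-values for PTEC therefore measure the spread between these libraries, which may be technical. The comparisons ask how the ribosomal protein genes differ between senescence-inducing irradiation and its control, and between kidney ages.

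Each ribosome is built from a small subunit that decodes the messenger RNA and a large subunit that joins the amino acids, and each subunit holds 1 copy of most of its proteins. Ribosomal protein mRNAs are among the most abundant of a growing cell, and most begin with a run of pyrimidines, the terminal oligopyrimidine (TOP) motif, through which mTOR and Larp1 control their translation. Free Rpl5 and Rpl11 bind Mdm2 when ribosome assembly is disturbed, which ties this gene family to p53. A few members have a close copy elsewhere in the genome (Rps27 and Rps27l, Rpl3 and Rpl3l, Rpl36a and Rpl36al), and the balance within such pairs differs between tissues.

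RefSeq start sites were at hand for 61 of the 81 members (mouse build GRCm38.p6, the most upstream start per gene). At least 8 C or T bases in a row lay within 20 bases of the start in 27 of these members, or 44.3%, and in 15.9% of 27025 genes. The letters CTTCCG, the core bound by ETS factors, stood on either strand of the 300 bases around the start in 68.9% of the members and in 17.2% of all genes, and the palindrome TCTCGCGA in 14.8% and 1.09%. The YY1 core AAGATGGC was found in 8.2% and 2.87%, and TATAAA in 9.84% and 14.2%. A match of letters is a description of these windows and not a binding site. A run counted here can lie upstream of the start used, as in Rpl13, Rps27l and Rpl39, and is then not a TOP motif. The most upstream start can also lie outside the annotated gene. That of Rpl22 was at base 152324436, while the gene begins at base 152325742. The windows of the members with the strongest and weakest fall in irradiated PTEC are shown with Rps27 and Rpl3l, the partners in the pairs described further on. Each runs 40 bases in the direction of the gene with its start site as base 21, and capitals mark the longest C or T run of at least 8. They lie at chr9:120127746-120127785 (plus strand, Rpsa), chr10:23787190-23787229 (minus, Rps12), chr8:123102330-123102369 (plus, Rpl13), chr9:66946066-66946105 (plus, Rps27l), chr16:55966255-55966294 (plus, Rpl24), chr4:152324416-152324455 (plus, Rpl22), chrX:37085203-37085242 (minus, Rpl39), chr11:98026690-98026729 (plus, Rpl19), chr3:90213629-90213668 (minus, Rps27) and chr17:24727806-24727845 (plus, Rpl3l).
Rpsa: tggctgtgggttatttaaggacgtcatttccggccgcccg
Rps12: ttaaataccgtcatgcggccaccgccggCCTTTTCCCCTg
Rpl13: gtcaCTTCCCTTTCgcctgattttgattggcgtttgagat
Rps27l: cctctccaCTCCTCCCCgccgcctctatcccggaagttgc
Rpl24: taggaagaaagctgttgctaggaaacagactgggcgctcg
Rpl22: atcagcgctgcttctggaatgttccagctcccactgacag
Rpl39: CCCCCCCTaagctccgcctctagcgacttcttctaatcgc
Rpl19: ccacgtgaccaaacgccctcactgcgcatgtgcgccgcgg
Rps27: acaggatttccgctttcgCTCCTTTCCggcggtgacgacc
Rpl3l: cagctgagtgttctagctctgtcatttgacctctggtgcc
Among these 10 windows a run of pyrimidines was present on both sides of the ranking: Rps12 and Rpl13 held one, Rpsa did not, and of the 5 least changed members Rps27l and Rpl39 held one.

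Total counts ran from 26963442 to 35409144 in PTEC and from 37311247 to 66894790 in kidneys. The share of all counts that fell on the 81 members was 3.58%, 3.49%, 5.88% and 2.70% in day 6 cultures 1 to 4, and 1.73%, 1.62%, 2.82% and 1.90% in irradiated cultures 1 to 4. It was 2.95%, 1.82% and 4.24% in the 3-month kidneys, 2.07%, 3.72% and 1.97% in the 12-month kidneys, and 2.17%, 2.85% and 2.23% in the 24-month kidneys. Day 6 and irradiated cultures overlapped by a single pair of libraries, and the share was lower after irradiation in each of the 4 same-numbered pairs, by 2.07, 2.15, 2.09 and 1.42 times. The kidney ages overlapped, with 1 high kidney at 3 months and 1 at 12 months. The 297 pseudogenes named after a member with the ending -ps added at most 0.438% to the members' counts. Pseudogenes under other names were not counted.

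**Figure D1:**
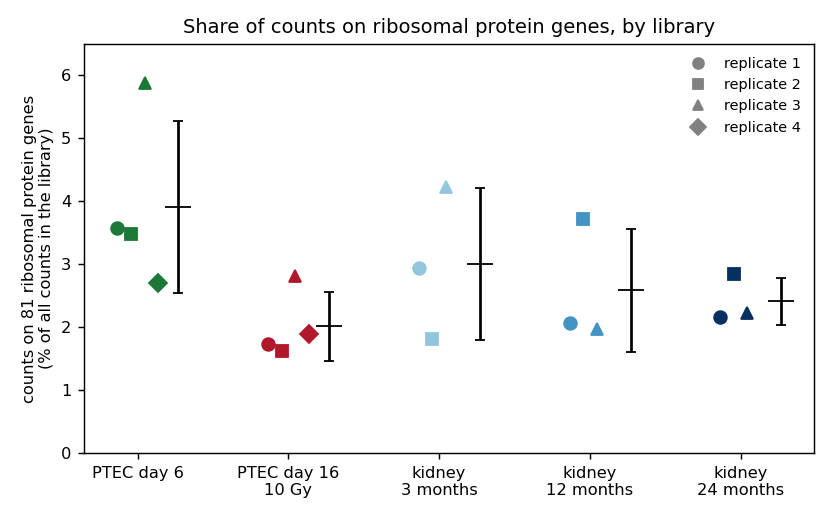
Share of counts on the 81 ribosomal protein genes (y axis, percent of all counts in the library) in the 5 groups; symbols give the replicate number, and the bar with whiskers gives mean ± SD. Mean shares were 3.91% on day 6 and 2.02% after irradiation (n = 4 each), and 3.00%, 2.59% and 2.42% at 3, 12 and 24 months (n = 3 each).

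In each group, the library with the highest share of ribosomal protein counts was also highest for other short genes. Genes outside the family with transcripts under 800 bases (1620 genes) took 3.10% of the counts in day 6 culture 3 and 1.99% to 2.05% in the other day 6 cultures, and 2.15% in irradiated culture 3 against 1.62% to 1.68% in the other irradiated cultures. In kidneys their highest shares, 9.60% and 9.16%, were in 3-month kidney 3 and 12-month kidney 2, the same 2 kidneys that were highest for the members. Genes with transcripts of at least 4000 bases (5082 genes) went the other way, at 22.6% in day 6 culture 3 and 32.3% to 34.5% in the other day 6 cultures. Among kidneys their share was lowest in 3-month kidney 3 (12.6%) and 12-month kidney 2 (13.9%). The part of this imbalance between short and long genes in the results that follow was not tested, and values with a length-dependent correction are given beside them.

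**Figure D2:**
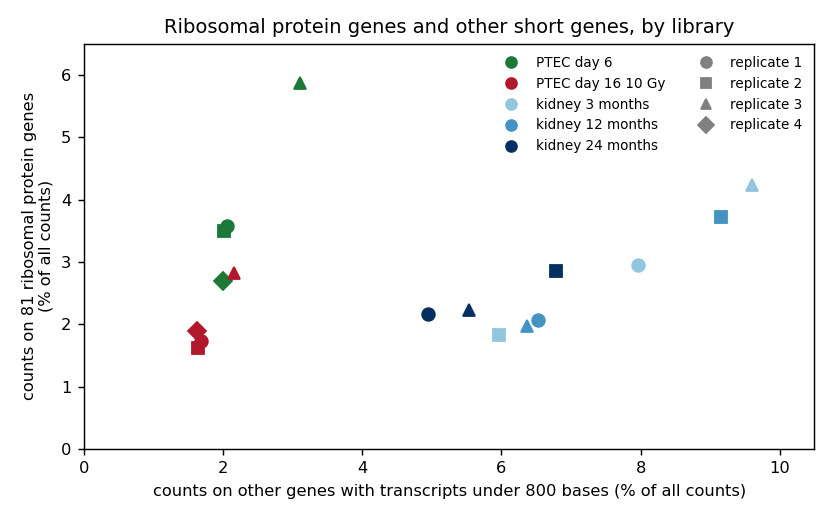
Counts on the 81 ribosomal protein genes (y axis) against counts on 1620 other genes with transcripts under 800 bases (x axis), both in percent of all counts, 1 point per library. Day 6 culture 3 lies at 3.10% and 5.88%, above the other day 6 cultures on both axes, and 3-month kidney 3 lies farthest right at 9.60%.

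In irradiated PTEC the ribosomal protein genes fell as a block. Of the 78 members with enough counts to test, 74 were called lower and 0 higher than on day 6 (adjusted p under 0.05 and a log2 fold change beyond 0.5 in either direction), while 19.7% of the 15434 genes tested were called lower and 20.1% higher. The log2 fold change was below 0 for all 78, with a median of -1.0 against -0.00 over all genes, where 50.1% lay below 0. The untested members were Rpl3l, Rpl10l and Rpl39l. In bulk samples like these, less RNA per cell and fewer cells of a type cannot be told apart. Groups did not overlap for 35 of the 78 members (19.9% of all genes were lower without overlap and 22.1% higher), and 77 of 78 were lower in all 4 same-numbered pairs (31% of all genes, and 33.1% were higher in all), Rpl24 being the exception in pair 4. The median fall over members was 2.08-fold, 2.21-fold and 2.24-fold in pairs 1 to 3 and 1.39-fold in pair 4.

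**Figure D3:**
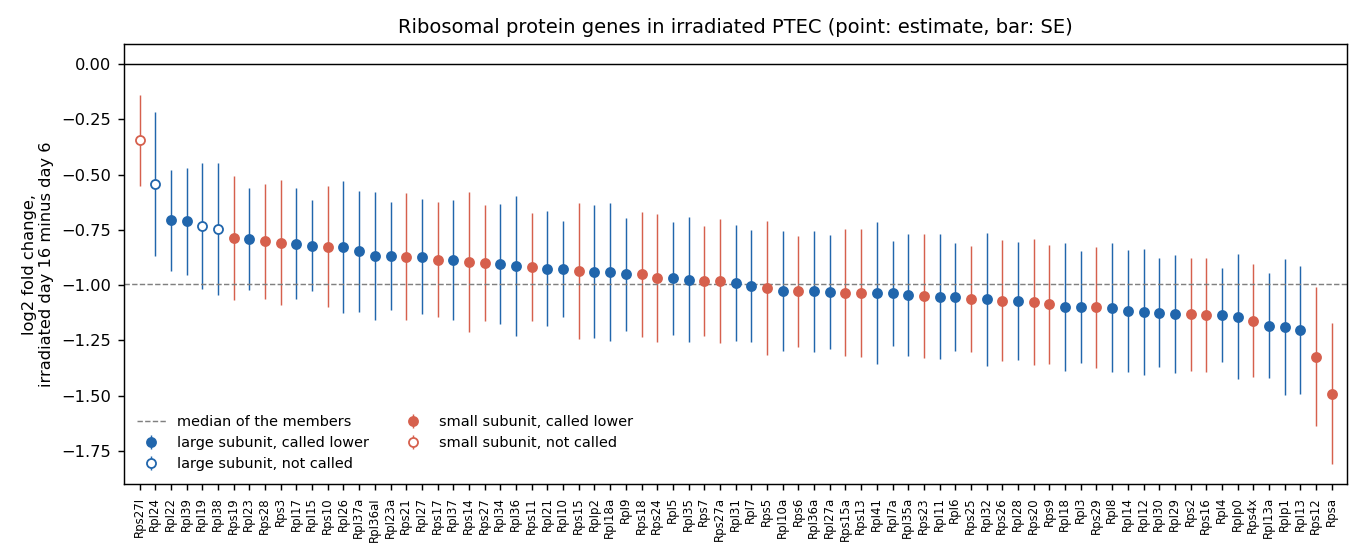
Log2 fold change (y axis, irradiated day 16 minus day 6, ± SE) of 77 of the 78 tested ribosomal protein genes, ordered from least to most negative; filled points were called lower. All points lie below 0, from -0.34 for Rps27l to -1.49 for Rpsa, around a median of -1.0.

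Both subunits took part. Among small subunit members 30 of 31 were called lower (median -1.01 on the log2 scale), and among large subunit members 44 of 47 (median -0.99). The largest fall was that of Rpsa, a small subunit protein that also serves as a laminin receptor (chr9:120127689-120132369). Rpsa was at 1172, 1158, 2293 and 805 CPM (counts relative to the scaled library total) in day 6 cultures 1 to 4 and at 429, 378, 660.4 and 462 CPM in irradiated cultures 1 to 4. Every irradiated culture was below every day 6 culture, and the log2 fold change was -1.49 ± 0.32 (SE, n = 4 per group, adjusted p = 0.00448). Rps12, a small subunit protein, fell from 611, 602, 1063 and 401 CPM to 225, 200.1, 396 and 249 CPM, again without overlap (log2 fold change -1.32 ± 0.31, adjusted p = 0.00756). Rpl13 (-1.20) and Rplp1 (-1.19) were also among the largest falls, with groups that did not overlap.

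The stalk proteins Rplp0, Rplp1 and Rplp2, which recruit elongation factors to the large subunit, were all called lower. Rplp0 lay between 1214 and 2944 CPM on day 6 and between 669 and 1121 CPM after irradiation. Its log2 fold change was -1.14 ± 0.28 (adjusted p = 0.00942), and that of Rplp2 was -0.94 ± 0.30 (adjusted p = 0.0295). Rps6, the substrate of the S6 kinases, was at 296, 284, 488 and 219 CPM on day 6 and at 137, 131, 206 and 157 CPM after irradiation, a non-overlapping fall of 1.03 on the log2 scale (adjusted p = 0.00889). Rpl5 and Rpl11, the proteins that bind Mdm2, fell by 0.97 and 1.05 on the log2 scale (adjusted p = 0.0126 and 0.0137). Rps19, whose loss underlies an inherited anaemia, was lower by a smaller step, with a log2 fold change of -0.79 ± 0.28 (adjusted p = 0.0444) and overlapping groups. Rpl10a, Rps25 and Rpl38, which have been studied for the translation of selected mRNAs, changed by -1.03, -1.06 and -0.75 on the log2 scale, and Rpl38 did not pass the test (adjusted p = 0.0669), but was called lower with the replicate number as a block (-0.71, adjusted p = 0.00197) and with DESeq2 (adjusted p = 0.0348). Rpl13a and Rps18, both used as reference genes in quantitative PCR, were called lower as well, Rpl13a by -1.18 ± 0.24 (adjusted p = 0.00311) and Rps18 by -0.95 ± 0.28 (adjusted p = 0.0212).

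The smallest fall was that of Rps27l, a target of p53 and close copy of Rps27 (chr9:66946086-66949516). Rps27l was at 176, 171, 263 and 142 CPM on day 6 and at 133, 132, 189 and 139 CPM after irradiation, so the groups overlapped, and the log2 fold change of -0.34 ± 0.21 did not pass the test (adjusted p = 0.203). With the replicate number as a block its adjusted p was 0.0432, but the change of -0.32 was still smaller than the limit of 0.5. Its partner Rps27 went from 217, 245, 421 and 193 CPM to 120.4, 127, 197 and 133 CPM and was called lower (log2 fold change -0.90 ± 0.26, adjusted p = 0.0202). Per base of transcript, Rps27l stood at 49.6% ± 5.34 (SD, n = 4) of Rps27 on day 6 and at 71.7% ± 3.97 (n = 4) after irradiation. The log2 ratio of the pair was higher in each irradiated library than in any day 6 library, with a difference of 0.54 (two-sided exact permutation p = 0.0286, the smallest that 4 against 4 allows, and 0.192 after adjustment over the 25 pair comparisons made). The other members that missed the test were Rpl24 (-0.54 ± 0.32, adjusted p = 0.204), Rpl19 (-0.73 ± 0.28, adjusted p = 0.0612) and Rpl38, while Rpl22 (-0.71) and Rpl39 (-0.71) were called with the smallest changes. Rpl19, like Rpl38, was called lower with the block (-0.69, adjusted p = 0.00389) and with DESeq2 (adjusted p = 0.0289), and Rpl24 with neither.

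**Figure D4:**
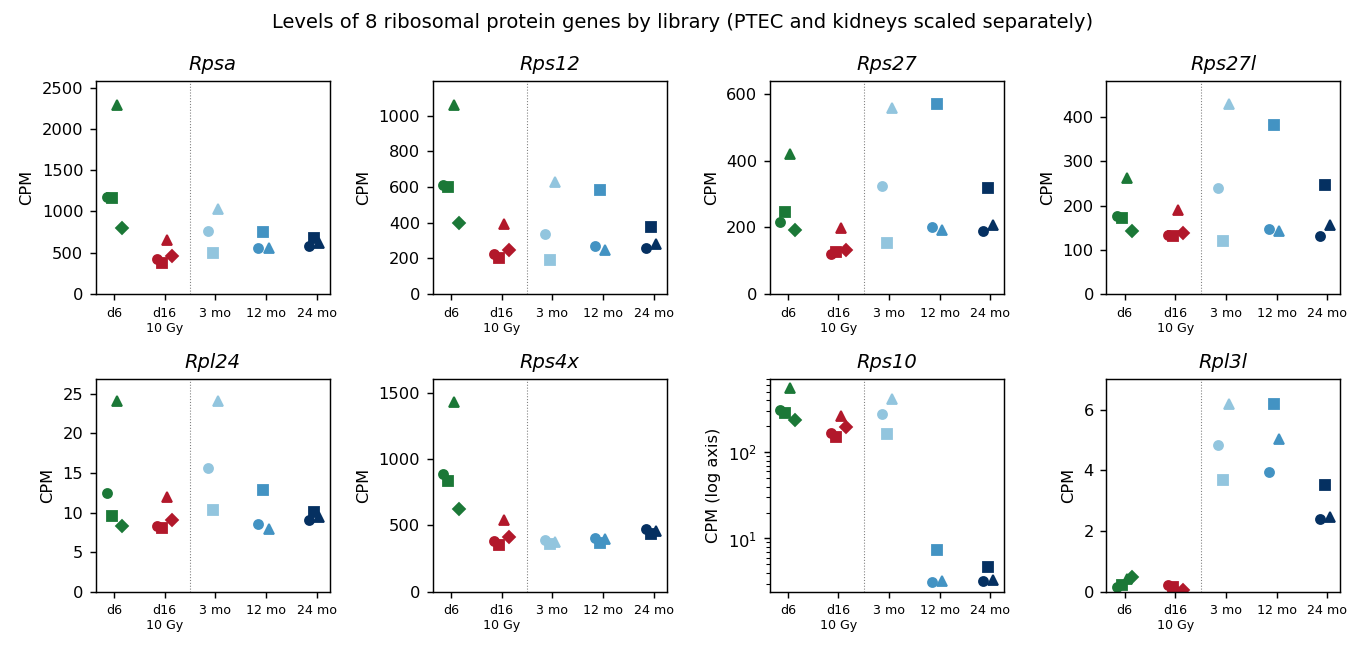
CPM (y axis) of 8 ribosomal protein genes in each library of the 5 groups, with symbols for replicates as in the plot of shares; PTEC and kidneys were scaled separately (dotted line), and the axis is logarithmic for Rps10. Rpsa and Rps12 show a gap between day 6 and irradiated cultures, Rps27l overlaps, and Rps10 falls from at least 163 CPM at 3 months to at most 7.32 CPM at 12 and 24 months.

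Members with a pyrimidine run within 20 bases of the start on either side (27 tested) changed by a median of -1.03 on the log2 scale. Those without such a run (31 tested) changed by a median of -0.95. The 39 tested members with the shorter transcripts had a median of -0.94 and the 39 longer ones -1.03. With a length-dependent correction added after the data were seen, 65 members were called lower, with a median of -0.72. Leaving out single libraries gave 41 to 76 calls: 41 without irradiated culture 1, 42 without irradiated culture 2, 47 without irradiated culture 4, and 59 without day 6 culture 3, with 0 members called higher each time. Without both cultures numbered 3, in which each of the 78 members was at its highest within the group, 76 were called lower, with a median of -0.88. The cycling genes Mki67, Top2a and Ccnb1 were called lower in irradiated PTEC, with summed levels of 484 to 1054 CPM on day 6 and 13.6 to 30.2 CPM after irradiation. Of 5 fibroblast genes 3 were called higher, with sums of 12.4 to 88.1 CPM on day 6 and 96.8 to 354 CPM after irradiation and with Lum under 0.1 CPM in all 8 cultures. Of 8 proximal tubule genes 5 were tested and 2 called lower. The 8 summed to 209 to 793 CPM (median 226) on day 6 and 165 to 351 CPM (median 279) after irradiation. Slc34a1 and Slc22a6 were under 0.1 CPM in every irradiated culture. The 4 epithelial genes Cdh1, Epcam, Krt8 and Krt18 were not called, but all lay below 0 (50.1% of all genes), with a median of -0.89 on the log2 scale. Their sums were 2031 to 3064 CPM on day 6 and 622 to 2335 CPM after irradiation. The part of these differences in the fall of the ribosomal protein genes was not tested.

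Other genes that serve translation were called lower in part, beside 19.7% of all genes called lower and 20.1% higher. Of 5 ribosomal components or copies of members that the naming rule misses, 3 were called lower, among them Rack1 (log2 fold change -1.0) and Rpl22l1 (-1.08). Fau (-0.72, adjusted p = 0.0742) and Rpl7l1 (-0.44, adjusted p = 0.0587) were not called. Of 57 ribosome biogenesis genes 37 were called lower and 0 higher, with a median of -0.64. Dkc1, the pseudouridine synthase of the small nucleolar particles, changed by -1.58, Npm1, a nucleolar chaperone, by -1.37, and Fbl, the nucleolar methyltransferase, by -1.21. Of 37 translation factors 24 were called lower and 1 higher, with a median of -0.62. Eif5a was lower by 1.11 on the log2 scale (-1.11), and Eif4a2 was the factor called higher (0.78). Of 77 tested mitochondrial ribosomal protein genes 34 were called lower and 0 higher, with a median of -0.56. Of 28 tested regulators of TOP translation and growth, a smaller share than of all genes was called in either direction: 2 were lower, Larp1b (-1.13) and Eif4ebp2 (-0.99), and 3 higher, among them Mxd4 (1.15), an antagonist of Myc, and Sesn2 (0.73), an inhibitor of mTOR complex 1. Of 12 genes of the p53 pathway 8 were called higher and 0 lower, including Cdkn1a (1.30) and Mdm2 (0.80).

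In kidneys, a single ribosomal protein gene was called different between ages. Rps10, a small subunit protein (chr17:27630418-27636669, minus strand), was at 277, 163 and 418 CPM in the 3-month kidneys, at 3.12, 7.32 and 3.24 CPM in the 12-month kidneys, and at 3.19, 4.62 and 3.33 CPM in the 24-month kidneys. The 3-month kidneys were far above both older groups. The log2 fold change was -5.97 ± 0.50 at 12 months (adjusted p = 0.000752) and -6.27 ± 0.51 at 24 months (adjusted p = 0.00062). Counted among 79 tested members, Rps10 was the only one called lower at 12 or at 24 months against 3 months and none was called higher, where 1.36% of 17067 genes were called lower and 1.22% higher at 12 months, and 0.451% lower and 1.89% higher at 24 months. The count tables of the 12- and 24-month kidneys list a further gene on the same strand, RPS10-NUDT3, which shares 475 exon bases (20.6%) with Rps10, has 0 counts in each of these 6 libraries and is not listed in the tables of the 3-month kidneys or PTEC. The 3-month kidneys were counted on another gene set than both older groups. Age and gene set therefore cannot be told apart for Rps10 or for any other member against 3 months. Of the other members, 3 share 24.5% to 47.0% of their exon bases with a same-strand gene in all tables, namely Rpl24 (47.0%), Rpl13a (29.4%) and Rpl36al (24.5%). Together with Rps10 these 4 had group means of 3.52 to 32.9 CPM at 24 months, while the other tested members apart from Rpl3l had group means of 98.1 CPM or more.

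The size and direction of the family median depended on single kidneys. Both comparisons with 3 months share the same 3 young kidneys, which were counted on another gene set than the older ones. The median log2 fold change of the members was -0.18 at 12 months and -0.31 at 24 months against 3 months, with 68 of 79 members below 0 in both (49.5% and 49.9% of all genes). Without 3-month kidney 3 the medians were 0.14 at 12 months and 0.01, near 0, at 24 months. Without 3-month kidney 2 they were -0.46 and -0.58. At 24 against 12 months 0 members were called in either direction by edgeR (0.434% of all genes were called lower and 0.896% higher), 1 was lower and 0 higher at an unadjusted p under 0.05 (7.19% and 8.06% of all genes), and 1 was called lower by DESeq2. The median was -0.15, with 53 of 79 below 0 (50.1% of all genes), and without 12-month kidney 2 it was 0.19. With the length-dependent correction the medians were -0.13, -0.09 and 0.07 for 12 against 3, 24 against 3 and 24 against 12 months. Of 7 leukocyte genes 3 were called higher at 24 than at 3 months, with sums of 22.1 to 92.5 CPM at 3 months and 43.6 to 81.9 CPM at 24 months, and their part in the members' values was not tested.

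**Figure D5:**
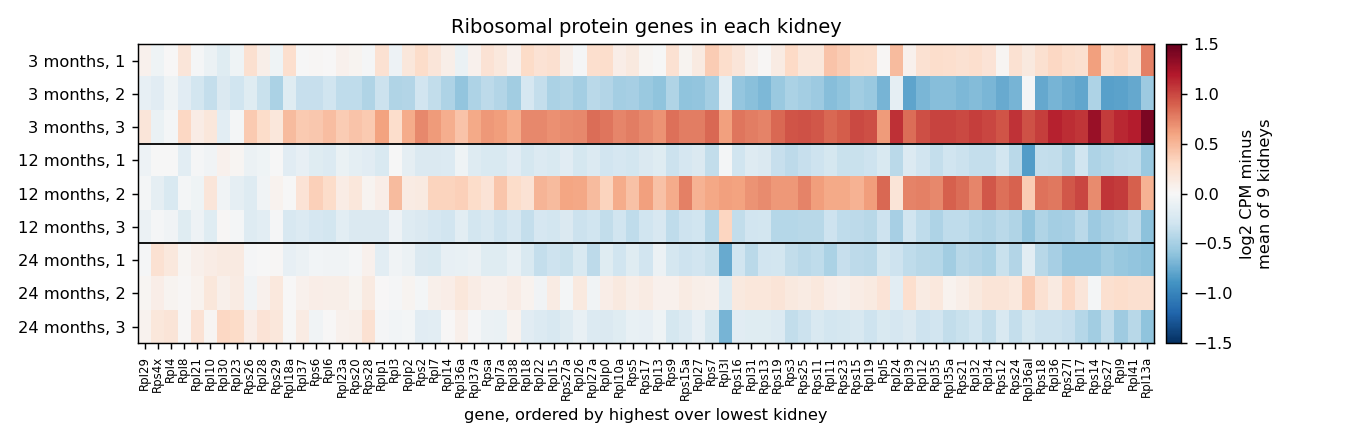
Log2 CPM of 77 ribosomal protein genes in each kidney (rows) minus the gene's mean over the 9 kidneys, with genes (columns) ordered by the ratio of highest to lowest kidney; Rps10 is left out. The rows of 3-month kidney 3 and 12-month kidney 2 are red toward the right, where that ratio reaches 4.08 for Rpl13a, and near white at the left, where it is 1.23 for Rpl29.

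The members differed in how far they followed these 2 kidneys. Leaving Rps10 out, the highest kidney was less than 1.5 times the lowest for 8 of 78 members and more than 3 times for 20. Rpl29 (1.23 times), Rps4x (1.32 times) and Rpl4 (1.34 times), of the large, small and large subunit, were steadiest, and Rpl13a (4.08 times), Rpl41 (3.83 times) and Rpl9 (3.81 times), all of the large subunit, varied most. Of all 79 tested members, 69 were highest in 3-month kidney 3 and 68 lowest in 3-month kidney 2. Among steady members, Rpl30 was at 133, 129 and 134 CPM at 3 months, 156, 145 and 152 CPM at 12 months and 165, 159 and 186 CPM at 24 months. Every older kidney was above every 3-month kidney, but the log2 fold change of 0.37 ± 0.12 at 24 months did not pass the test (adjusted p = 0.174 with edgeR and 0.013 with DESeq2, with a change under the limit of 0.5 in both). Rps4x, the X-linked copy of Rps4, was at 387, 359 and 379 CPM at 3 months and 473, 434 and 457 CPM at 24 months, likewise without overlap and without a call (0.28 ± 0.12, adjusted p = 0.265 with edgeR and 0.0345 with DESeq2, again under the limit of 0.5). At 12 against 3 months 1 of 79 members was higher and 1 lower without overlap (10.9% and 9.4% of all genes). In all, 4 of 79 members were higher and 3 lower at 24 than at 3 months without overlap (11.9% and 10.1% of all genes), and 10 higher and 1 lower at 24 than at 12 months (13.5% and 12.2%).

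Rpl3l, a copy of Rpl3 known from striated muscle (chr17:24727820-24736143), was the member with the most distinct tissue pattern. It had 184, 179 and 275 counts in the 3-month kidneys, 227, 375 and 261 at 12 months and 156, 231 and 161 at 24 months, against 0 to 13 counts in the 8 PTEC libraries. In CPM it was 3.67 to 6.19 at 3 months, 3.94 to 6.17 at 12 months and 2.38 to 3.51 at 24 months, so that the 24-month kidneys lay below all younger ones. The log2 fold change was -0.81 ± 0.26 at 24 against 3 months (adjusted p = 0.161) and -0.86 ± 0.26 at 24 against 12 months (adjusted p = 0.165 with edgeR and 0.0441 with DESeq2). Per base of transcript Rpl3l stood at 1.25% ± 0.0189 of Rpl3 at 3 months, 1.13% ± 0.169 at 12 months and 0.703% ± 0.148 at 24 months (SD, n = 3 each). The exact permutation test cannot go below p = 0.1 with 3 kidneys against 3, the value it gave for 24 against 3 and for 24 against 12 months (0.192 after adjustment). Rpl36al stood at 4.64% ± 0.555, 2.64% ± 0.741 and 3.28% ± 0.615 of Rpl36a per base at 3, 12 and 24 months, with exact permutation p = 0.1 for both older groups against 3 months. Rps27l stood at 52.7% ± 1.397, 49.2% ± 2.48 and 51.5% ± 2.55 of Rps27, without overlap between 12 and 3 months (exact permutation p = 0.1, adjusted 0.192). Both members of that pair were highest in 3-month kidney 3 and 12-month kidney 2. Against 3 months, age and gene set cannot be told apart for any of these pairs.

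Day 6 PTEC and 3-month kidneys differed in most genes but in few of the family. After joint scaling, 2 of 79 tested members were called higher in PTEC and 5 lower, where 33% of 16190 genes were called higher and 32.6% lower. Tissue, culture and gene set cannot be told apart here. Rpl4 was at 1380, 1284, 1723 and 925 CPM in PTEC and at 815, 791 and 804 CPM in kidneys, without overlap (log2 fold change 0.73 ± 0.27, adjusted p = 0.0354). Rps4x was the other member called higher (0.76 ± 0.30, adjusted p = 0.0428). Rpl3l was called lower, with 0.132 to 0.389 CPM in PTEC and 4.60 to 7.67 CPM in kidneys (log2 fold change -4.51 ± 0.42, adjusted p = 3.92e-06). Rps14 (-1.15), Rpl35a (-1.13), Rps27l (-1.06) and Rpl36al (-0.82) were called lower with overlapping groups. Without overlap 3 members were higher and 1 lower (31.7% and 32.7% of all genes). The family median was -0.09, against 0.05 over all genes, 51 of 79 members lay below 0 (48.8% of all genes), and with the length-dependent correction it was 0.53, with 38 members called higher and 1 lower. Leaving out single libraries gave 0 to 3 members higher and 1 to 17 lower: 1 lower without day 6 culture 1, 2 or 4 or 3-month kidney 3, 3 without 3-month kidney 1, 16 without day 6 culture 3 and 17 without 3-month kidney 2. The labelled cell type was checked against 8 proximal tubule genes, which summed to 209 to 793 CPM in day 6 PTEC and to 6485 to 12937 CPM in 3-month kidneys and were all called lower in PTEC. The epithelial genes Cdh1, Epcam, Krt8 and Krt18 summed to 2031 to 3064 CPM in day 6 PTEC. Of 57 ribosome biogenesis genes, 45 were called higher in PTEC and 4 lower, with a median of 1.18, and Ncl, a nucleolar protein, and Nop56, a small nucleolar particle protein, were higher by 2.14 and 2.35 on the log2 scale.

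Rpl10l and Rpl39l were near the limit of detection. Rpl10l, a copy of Rpl10 known from testis, had 0 counts in all 17 libraries, which allows up to 0.0448 to 0.111 CPM per library (3 counts). Rpl39l had 0 to 2 counts in 16 libraries and 7 in 24-month kidney 1. These limits cover counting error only.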

How the data were processed

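The members and gene lists were chosen with earlier results of these data known. Raw read counts per gene were deposited by the authors, who enriched mRNA by its poly(A) tail, prepared strand-specific libraries and ran the nf-core/rnaseq pipeline on the paired reads. Per the labels the genome build was GRCm38. The aligner, counter and strand setting are not given in the sources used here, so a member that overlaps a gene on the other strand may share its reads. PTEC, 3-month and older kidneys were counted on 3 gene sets, while the authors' supplement names a single GENCODE release for annotation. Identifiers were matched here without version to GENCODE release M 21, a later one.

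Counts were used as deposited. PTEC and kidneys were fitted apart (edgeR 4.0.16 in R 4.3.3, TMM scaling, filterByExpr, robust quasi-likelihood test, Benjamini-Hochberg adjustment over all tested genes), and day 6 PTEC with 3-month kidneys in a fit of their own. Calls needed both an adjusted p under 0.05 and a log2 change of more than 0.5 up or down. CPM are TMM-scaled. Ratios of copies were log2 of counts plus 0.5, compared with two-sided exact permutation tests, 25 in all, and lengths are those of the principal transcript. Share of counts had no test. Named members are the 5 largest and 5 smallest log2 fold changes of each comparison, copies with their parent genes, and members with a known special role, with extreme genes of the other lists. Within 21 pairs of replicate libraries, counts differed by a chi-square per gene of 17.0 to 341, and no library was a repeat of another.

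After subtraction of group means, irradiated and day 6 cultures with the same number correlated with r of 0.284, 0.382, 0.614 and 0.186. The highest r with another number was 0.265, 0.136, -0.105 and -0.0324. Same-numbered 24- and 12-month kidneys had r of 0.384, 0.557 and 0.172, against 0.270, -0.367 and 0.191 with another number. In PTEC the numbers were taken to pair libraries by the data, not by the labels. Kidneys of 24 and 12 months are different mice, those numbered 3 did not pair, and other kidney ages did not pair. The method was tested on simulated counts. Alternatives were other scalings, filters and thresholds, DESeq2 1.42.0, a replicate block and added counts of the -ps pseudogenes. Other sets of libraries were also used, and each library was left out in turn. The length-dependent correction (lowess of log counts on transcript length per library) and the fits without the libraries that stood highest were chosen after seeing the data. Python 3.11.15 with numpy, scipy, pandas and matplotlib was used. Promoter windows are from RefSeq; proteins, single cell data and in situ hybridization were not analysed here. Values of some genes are not reported here.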

Additional observations from a re-analysis of the deposited data

Results flagged for a closer look

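Among 85 gene or share values tested within the groups of 4 PTEC libraries, 8 had 1 library farther from the rest than Dixon's 95% limit. Chance gives about 1 in 20 for independent values. The members rise and fall together, with all 78 tested highest in culture 3 of each group, so the 8 cannot be set against that rate. Day 6 culture 3 stood high for Rpl10a at 644 CPM. Irradiated culture 3 stood high for Rpl41 at 425 CPM, Rps19 at 346 CPM, Rps27 at 197 CPM, Rps27l at 189 CPM, Rps29 at 156 CPM and Rpl35a at 142 CPM. Rpl39l had its only count in PTEC in irradiated culture 2, at 0.0335 CPM, and a single count among zeros always passes this limit. Except for Rpl39l, these values come from the cultures numbered 3, whose shares of short genes are given above, and the part of those shares was not tested.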

How the results depend on the processing

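With 4 or 3 libraries per group, members were called lower in irradiated PTEC in numbers from 41 to 76 when 1 library was left out, against 74 with all, and in 39 at a log2 fold change above 1. The replicate block gave 76 and DESeq2 76, and the block changed no count by more than 1.5 times. The length-dependent correction called 2 members lower at 12 against 3 months, Rps10 and Rpl24 (adjusted p = 0.0375, against 0.233). Age and gene set change together in that comparison. DESeq2 called 1 member lower at 24 against 12 months. Without 1 kidney, the counts stayed at 1 lower at 12 and at 24 against 3 months and at 0 for 24 against 12 months. For day 6 PTEC against 3-month kidneys the 2 members called higher became 0 at a log2 fold change above 1, with RLE or with upper-quartile scaling, 1 without the filter, 38 with the length-dependent correction and 0 to 3 without 1 library; the 5 called lower became 8 without the filter, 1 with the length-dependent correction, 10 with DESeq2, 9 with all 17 libraries in the fit and 1 to 17 without 1 library. The cause was not tested. Mean shares of counts moved by less than 1 SD when mitochondrially encoded genes were left out or the -ps pseudogenes added. With 1 library left out they ranged from 3.26% to 4.32% on day 6 and 1.75% to 2.15% after irradiation. At 3, 12 and 24 months these ranges were 2.39% to 3.59%, 2.02% to 2.90% and 2.20% to 2.54%. In groups of 3 or 4, leaving out 1 library cannot move the mean by 1 SD, so these ranges are a description only. Of the values of named members under an alternative, 1104 kept their status as called or not called, 71 lost a call and 29 gained one. Another 13 uncalled values changed sign by more than their SE. Values uncalled in both fits are among the 1104. Of these 1104, 205, 192 and 165 were for 12 against 3, 24 against 3 and 24 against 12 months, where only Rps10 was called. No called value changed sign. No paired analysis was possible for day 6 PTEC against 3-month kidneys because the numbers do not link cultures to kidneys. Depth limited Rpl10l, Rpl39l and, in PTEC, Rpl3l.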

Other observations

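In kidneys, 0 of 77 tested mitochondrial ribosomal protein genes were called at 24 against 3 months by edgeR, where 0.451% of all genes were called lower and 1.89% higher. Of these 77, 74 lay below 0 (49.9% of all genes), with a median log2 fold change of -0.42. How far this median rests on 3-month kidney 3 or on the change of gene set was not tested. The 3 cycling genes were called higher, with a median of 2.11. In day 6 PTEC against 3-month kidneys 58 of the 77 mitochondrial ribosomal protein genes were called lower and 0 higher (32.6% and 33% of all genes), with a median of -1.16. Of the cytosolic members 2 were called higher and 5 lower. The difference between both ribosomal families was not tested. The number of large subunit counts per small subunit count was 1.34 to 1.39 on day 6, 1.37 to 1.42 after irradiation and 1.20 to 1.46 in kidneys, with its lowest values of 1.20, 1.27 and 1.29 in 3-month kidney 3, 12-month kidney 2 and 3-month kidney 1. Rpl22l1 per base of transcript stood at 35.6% ± 3.90 (SD, n = 4) of Rpl22 on day 6 and 27.7% ± 1.20 (n = 4) after irradiation, without overlap in the log2 ratio (exact permutation p = 0.0286, adjusted 0.192), and at 18.1% ± 0.949, 25.4% ± 3.78 and 18.2% ± 1.59 at 3, 12 and 24 months (n = 3 each).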
